A study of Mus musculus with 9 samples.

Results

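The genes described here are 10 amino-acid transporter genes of the mouse, Slc3a2, Slc7a1, Slc7a2, Slc7a5, Slc7a8, Slc7a11, Slc38a2, Slc38a3, Slc38a5 and Slc43a1. They were taken by gene symbol from a table of 46078 genes, and each symbol matched 1 row. The table gives polyA RNA sequencing of whole pancreas, frozen and ground, from mice aged 8 weeks in 3 groups of 3 animals. Animals of the Snd1_KI group carried a knock-in allele of Snd1, those of the S6k2_RK group an allele of S6k2 that the labels call RK, and the WT group was made up of wild-type littermates. SND1 is a protein with a Tudor domain, the kinase S6K2 is encoded by Rps6kb2, and the series concerns recognition of methylated S6K2 by the Tudor domain of SND1. The base changes of both alleles, and whether the animals carried 1 copy or more, are not given in the sources used here.

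Pancreatic acinar cells make and secrete large amounts of digestive enzymes and depend on a steady uptake of amino acids for protein synthesis. Transporters of the SLC7 family that exchange large neutral amino acids or cystine work as heterodimers: a light chain carries the substrate, and the heavy chain encoded by Slc3a2 takes it to the plasma membrane. Transporters of the SLC38 family couple the uptake of small neutral amino acids or glutamine to sodium, and the amino acids that enter are read by the kinase complex mTORC1, which acts through S6 kinases.

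The values are counts of reads per gene divided by 1 size factor per library, called normalized counts below. Each library held 13461427 to 21034501 reads assigned to genes, and 1 read was worth 0.774 to 1.34 normalized counts. A gene was called when limma, fitted to log2 of the normalized count plus 1 across 11953 genes with a mean of at least 10, gave an adjusted p below 0.05. All differences below are on that log2 scale, which understates changes of genes with few reads. The 8 markers of acinar cells summed to between 4918192 and 5132744 normalized counts in WT, 6363293 and 6700442 in Snd1_KI, and 7023373 and 8531292 in S6k2_RK, so the groups did not overlap. Of the 8, limma called 0 higher and 1 lower (Rbpjl) in Snd1_KI, and 2 higher (Ptf1a and Cel) and 1 lower (Rbpjl) in S6k2_RK, while edgeR called 3 and 6 in all. At equal totals, with each library scaled to the same sum over genes, limma called 0 higher in either mutant and 1 and 2 lower. In ground tissue, fewer cells of a type and less RNA per cell cannot be told apart. The RNA of the targeted genes does not check the genotypes, since the base changes are not given and an altered allele need not alter the level. Snd1 was called higher in Snd1_KI by 0.54 ± 0.12 (SE) and in S6k2_RK by 0.48 ± 0.12, with limma adjusted p of 0.0101 and 0.0115. The first call was lost without WT or Snd1_KI replicate 2, and the second when WT replicate 1 or S6k2_RK replicate 2 or 3 was left out, with adjusted p up to 0.0699 and 0.0546. At equal totals neither was called (0.26 and -0.039, limma adjusted p = 0.0921 and 0.746). Rps6kb2 was not called in either mutant (-0.41 ± 0.29 and -0.79 ± 0.29). It had 55.0, 65.8 and 53.1 normalized counts in WT, 42.4, 52.7 and 36.4 in Snd1_KI and 56.0, 25.5 and 24.7 in S6k2_RK. Without S6k2_RK replicate 1, Rps6kb2 was called lower in S6k2_RK (limma adjusted p = 0.00559). At equal totals, with all libraries kept, it was also called lower there (-1.30, limma adjusted p = 0.00404). On that scale 49.8% of all genes tested were called lower in S6k2_RK, and the median gene lay at -0.51.

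In Snd1_KI, 4 of the 10 transporter genes rose and none fell. The 4 were Slc3a2, Slc7a8, Slc38a3 and Slc38a5, which rose by 1.39- to 1.67-fold. In S6k2_RK, Slc38a3 and Slc38a5 rose and none of the 10 fell. Both mutants therefore share the rise of this pair of glutamine transporters, but they are measured against the same 3 WT libraries. Of all 11953 genes tested, 5.61% were called in Snd1_KI (2.4% higher and 3.2% lower, 287 and 383 genes) and 12.0% in S6k2_RK (5.2% higher and 6.83% lower, 621 and 816 genes). The 3 Snd1_KI libraries were all above the 3 WT libraries for 5 of the 10 genes, beside 14.1% of all genes, and the S6k2_RK libraries for 1 of the 10, beside 14.7%. On this scaling no gene of the 10 had a mutant group all below WT, beside 13.0% and 13.6% of all genes. The median difference of the 10 genes was 0.45 in Snd1_KI and 0.29 in S6k2_RK, beside 0.0027 and 0.0024 over all genes tested. The 10 were chosen with earlier results of these data known, so their counts and medians beside all genes are descriptive. With the libraries set to equal totals, the median gene moved to -0.28 in Snd1_KI and -0.51 in S6k2_RK, and the calls over all genes split into 45 higher and 1581 lower in Snd1_KI and 37 higher and 5954 lower in S6k2_RK. On that scale the median of the 10 genes was 0.16 in Snd1_KI and -0.23 in S6k2_RK, and 10 of 10 and 7 of 10 lay above the median gene. There, 1 of the 10 was called in Snd1_KI (Slc38a3, higher), and 2 in S6k2_RK (Slc7a11 and Slc38a2, both lower), beside 0.376% of all genes called higher and 13.2% called lower in Snd1_KI, and 0.31% and 49.8% in S6k2_RK. In Snd1_KI, 3 of the 10 were then all above WT (Slc3a2, Slc7a5 and Slc38a3) and 1 all below (Slc38a2), beside 2.35% and 38.1% of all genes. In S6k2_RK, 1 was all above (Slc38a3) and 4 all below (Slc7a2, Slc7a11, Slc38a2 and Slc43a1), beside 0.602% and 54.6%.

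**Figure D1:**
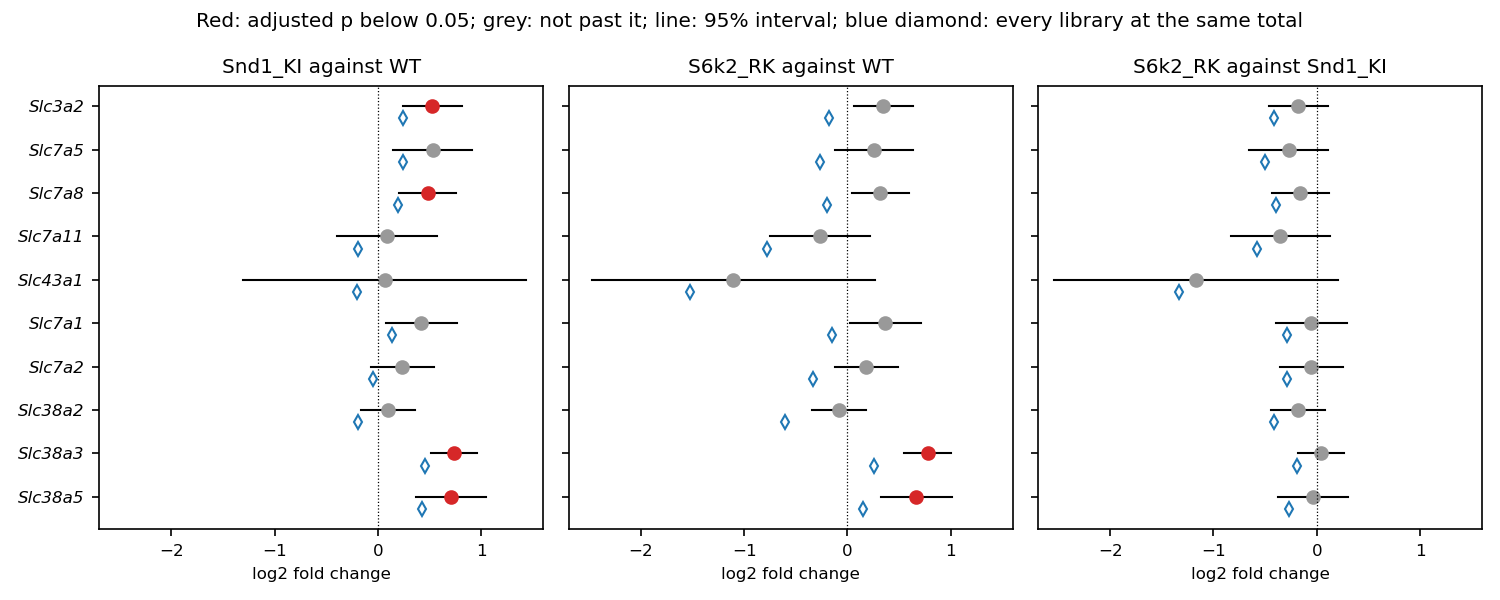
Log2 difference of each of the 10 transporter genes in 3 comparisons, with points at the limma estimate, bars for the 95% interval and red for genes called. Blue diamonds give the estimate with libraries at equal totals, where Slc38a3 in Snd1_KI was called higher and Slc7a11 and Slc38a2 in S6k2_RK were called lower.

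Markers of other cell types moved in the same libraries. The 10 T cell markers summed to 274 to 843 normalized counts in WT, 31.0 to 76.2 in Snd1_KI and 29.7 to 33.0 in S6k2_RK. Of the 9 tested, 8 fell in Snd1_KI and 9 in S6k2_RK, and Trac, the constant chain of the T cell receptor alpha, was at 0 in the 3 S6k2_RK libraries. The 8 B cell and plasma cell markers summed to 459 to 1079, 192 to 194 and 33.4 to 219 in the same order, with 7 and 8 of the 8 tested called lower. Sums of the 9 macrophage markers were 2940 to 3984, 1597 to 2797 and 1105 to 1620, with 1 and 6 of 9 called lower. The 7 ductal markers summed to 2098 to 2242, 2826 to 3041 and 2826 to 3298, and islet markers to 48955 to 56873, 28411 to 50695 and 33243 to 64082. Of the ductal markers, 2 were called higher in Snd1_KI (Muc1 and Krt19) and 1 in S6k2_RK (Muc1), with 0 lower. No islet marker was called. The 8 adipocyte markers summed to 1528 to 2374, 1179 to 1942 and 732 to 1822, with 0 of 8 called lower in Snd1_KI by limma, edgeR and DESeq2, and in S6k2_RK 6 by limma and 2 by edgeR and by DESeq2. The 6 endothelial markers summed to 1446 to 1925, 1122 to 1366 and 1049 to 1465, with 2 of 6 called lower in each mutant, and the 7 markers of fibroblasts and smooth muscle to 5019 to 7399, 7239 to 9352 and 5046 to 7960. Of those 7, 1 was called lower in each mutant (Acta2) and 0 higher. The part of these markers in the transporter values was not tested.

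Set per kilobase of exon, so that genes can be compared, the heavy chain had the highest mean of the 10 in WT. Slc3a2 stood at 436 ± 15.7 normalized counts per kb, Slc38a5 at 393 ± 105 and Slc7a5 at 379 ± 21.8 (mean ± SD, n = 3). The WT libraries of Slc3a2 and Slc7a5 did not overlap. Those of Slc38a5 overlapped both, and in WT replicate 3 Slc38a5 was above Slc3a2, so its place among the 3 is not resolved. Below them the levels per kb in WT were 263 ± 45.6 for Slc7a8, 174 ± 19.9 for Slc38a3, 123 ± 7.07 for Slc38a2, 41.4 ± 6.73 for Slc7a1, 22.9 ± 2.16 for Slc7a2, 5.44 ± 0.677 for Slc7a11 and 2.05 ± 0.670 for Slc43a1. From Slc7a5 downwards, no gene's WT libraries overlapped those of the next. The order of the means was the same in Snd1_KI. In S6k2_RK Slc38a5 came first at 621 per kb and Slc3a2 second at 566, with overlap between animals. Together the 10 genes took 0.0582% to 0.0644% of reads in the WT libraries, 0.0656% to 0.0736% in Snd1_KI, and 0.0497%, 0.0673% and 0.0486% in S6k2_RK replicates 1, 2 and 3.

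**Figure D2:**
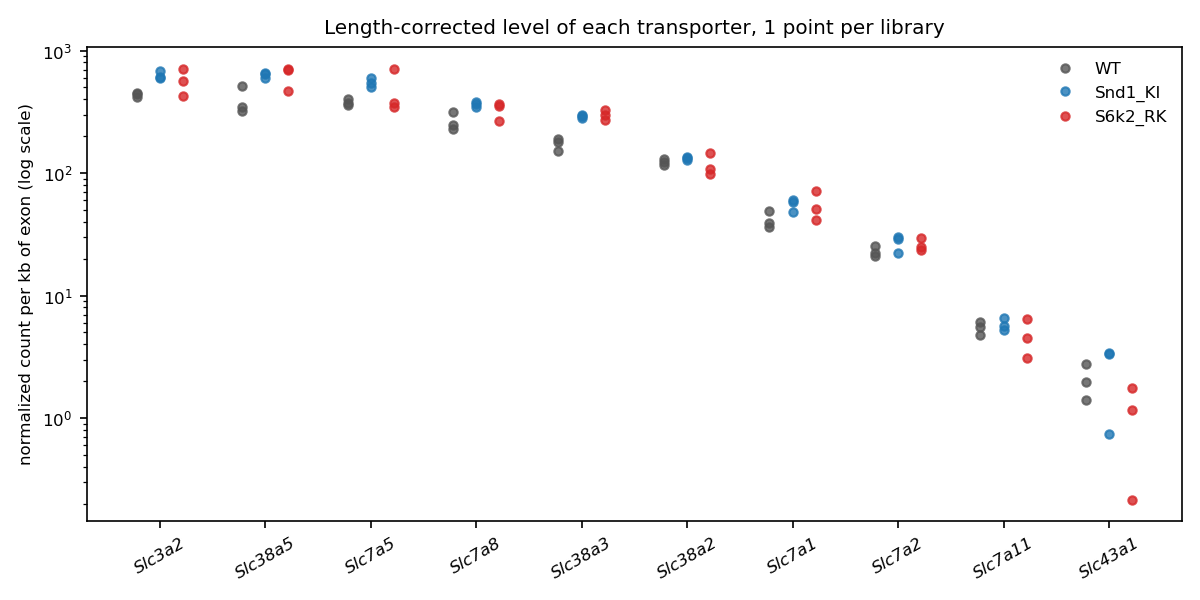
Normalized counts per kilobase of exon (log axis) for the 10 genes in the 9 libraries, by group. In WT, Slc3a2 has the highest mean, 436 per kb, and Slc43a1 the lowest, 2.05 per kb.

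RefSeq promoters were found for 7 of the 10 genes, and not for Slc7a2, Slc7a5 and Slc38a3. The 250 bases before the start were searched on both strands for an amino-acid response element (TGATGNAA), which binds ATF4, an E-box (CACGTG), and an antioxidant response element (TGACNNNGC), which binds NRF2. Of all 32851 promoters, 3.45% hold the first, 6.02% the second and 10.2% the third. The promoters below are those of the heavy chain and a light chain that rose in Snd1_KI, of Slc38a5, called in both mutants, and of Slc7a11, called in neither on the authors' scaling, in GRCm38.p6. They are chr19:8713898-8714147 (minus strand), chr14:54781887-54782136 (minus), chrX:8271131-8271380 (plus) and chr3:50443614-50443863 (minus), written 5′ to 3′ on the gene's strand with matches in capitals.
Slc3a2: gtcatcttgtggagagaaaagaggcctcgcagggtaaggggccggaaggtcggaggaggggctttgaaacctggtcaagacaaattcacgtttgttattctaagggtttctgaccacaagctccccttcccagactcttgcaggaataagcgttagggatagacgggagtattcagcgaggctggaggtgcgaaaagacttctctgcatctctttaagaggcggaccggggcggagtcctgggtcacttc
Slc7a8: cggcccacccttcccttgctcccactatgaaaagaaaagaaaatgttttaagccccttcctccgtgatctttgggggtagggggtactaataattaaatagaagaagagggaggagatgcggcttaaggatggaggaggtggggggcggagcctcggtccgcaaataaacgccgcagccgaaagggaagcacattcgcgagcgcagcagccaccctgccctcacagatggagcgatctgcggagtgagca
Slc38a5: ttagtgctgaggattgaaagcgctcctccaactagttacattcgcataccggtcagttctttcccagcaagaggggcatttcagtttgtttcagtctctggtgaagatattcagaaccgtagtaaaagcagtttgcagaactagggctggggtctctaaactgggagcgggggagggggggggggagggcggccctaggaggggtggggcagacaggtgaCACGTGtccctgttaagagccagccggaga
Slc7a11: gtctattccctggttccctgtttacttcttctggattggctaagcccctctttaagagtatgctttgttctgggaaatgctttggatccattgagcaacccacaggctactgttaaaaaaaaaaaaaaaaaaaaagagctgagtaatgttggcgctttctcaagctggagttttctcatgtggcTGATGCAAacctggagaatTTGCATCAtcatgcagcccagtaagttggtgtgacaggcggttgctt
In these windows Slc3a2 and Slc7a8 have no match, and Slc38a5 has an E-box 30 to 25 bases before the start. The start is RefSeq's and can differ from the end of the annotated gene. The Slc3a2 window lies inside the gene (8706882 to 8723369), so the bases before its outermost annotated start were not searched. The windows of Slc38a5 and Slc43a1 also lie almost or wholly inside their genes. Slc7a11 has an amino-acid response element on each strand, 66 to 59 and 47 to 40 bases before the start, and 0.0396% of all promoters, 13 in number, hold 2 or more. Of the other promoters, that of Slc38a2 holds an antioxidant response element and that of Slc43a1 holds it and an E-box. Slc7a1 has 2 promoters in the table, of which 1 holds an antioxidant response element and the other has no match. A match describes the letters and does not show a site in use.

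Slc3a2 encodes the heavy chain 4F2hc, also known as CD98, on which several light chains depend for their place in the membrane. The gene, ENSMUSG00000010095, lies on the minus strand of chromosome 19 at 8706882 to 8723369 (GRCm38), with 3529 bp of exon. Its normalized counts were 1475, 1561 and 1579 in WT, 2137, 2103 and 2406 in Snd1_KI and 1509, 2501 and 1982 in S6k2_RK. The 3 Snd1_KI libraries were above the 3 WT libraries, while S6k2_RK replicate 1 lay among WT and replicate 2 was the highest of the 9. In Snd1_KI Slc3a2 rose by 0.52 ± 0.14 (SE; 95% interval 0.24 to 0.81), or 1.44-fold, with a limma adjusted p of 0.0288. This call was lost when WT replicate 1, WT replicate 2 or any 1 Snd1_KI library was left out (adjusted p up to 0.142), and at equal totals the difference was 0.24 (adjusted p = 0.198, limma). In S6k2_RK the difference from WT was 0.35 ± 0.14 (limma adjusted p = 0.104), -0.17 at equal totals. Without S6k2_RK replicate 1, Slc3a2 was called higher (limma adjusted p = 0.00386).

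Slc7a5 and Slc7a8 encode LAT1 and LAT2, the light chains that exchange large and neutral amino acids, leucine among them. Slc7a5 is ENSMUSG00000040010, chromosome 8, 121881150 to 121907694, minus strand, and Slc7a8 is ENSMUSG00000022180, chromosome 14, 54722209 to 54781946, minus strand. Slc7a8 had 1236, 1140.4 and 1575 normalized counts in WT, 1825, 1743 and 1892 in Snd1_KI and 1329.5, 1844 and 1758 in S6k2_RK. The Snd1_KI libraries did not overlap WT, and S6k2_RK did. In Snd1_KI Slc7a8 rose by 0.48 ± 0.13 (95% interval 0.20 to 0.75), 1.39-fold, with a limma adjusted p of 0.0377. The call was lost when WT replicate 1, WT replicate 2 or any animal of Snd1_KI was left out (up to 0.193), with edgeR (adjusted p = 0.0523), with only genes of a mean of at least 50 (limma adjusted p = 0.0521) and at equal totals, where the difference was 0.19 (limma adjusted p = 0.272). In S6k2_RK Slc7a8 differed from WT by 0.32 ± 0.13 (limma adjusted p = 0.122), -0.20 at equal totals, and it was called higher without S6k2_RK replicate 1 (0.0155) or WT replicate 3 (0.0326).

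Slc7a5 had 1387, 1492 and 1333 normalized counts in WT, 2019, 1869.6 and 2193 in Snd1_KI and 1386, 2642 and 1286 in S6k2_RK. The Snd1_KI libraries were above WT, and in S6k2_RK replicate 2 stood far above the other 2 animals, which were within or under the WT range. The difference from WT in Snd1_KI was 0.53 ± 0.18 (95% interval 0.15 to 0.91), 1.44-fold, close to that of Slc3a2, but with a limma adjusted p of 0.101. The fit takes 1 spread from the 9 libraries: without S6k2_RK replicate 2 the adjusted p was 0.00287, and with only WT and Snd1_KI it was 0.00183. At equal totals the difference was 0.24 (limma adjusted p = 0.395). In S6k2_RK the difference from WT was 0.26 ± 0.18 (limma adjusted p = 0.390), which became -0.071 without replicate 2 and -0.26 at equal totals.

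**Figure D3:**
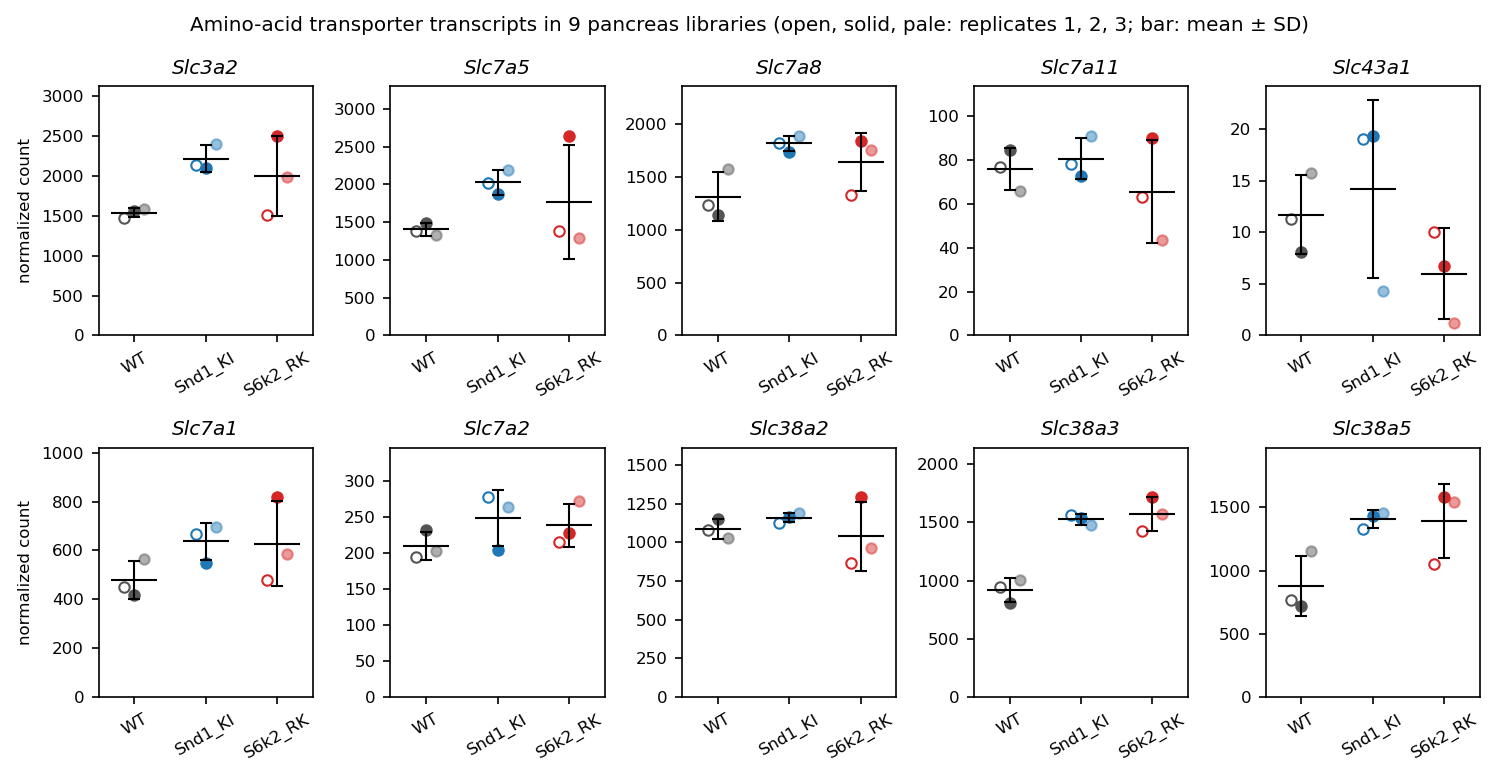
Normalized counts of the 10 genes by group, 1 panel a gene, with open, solid and pale points for replicates 1, 2 and 3 and bars for the mean ± SD (n = 3). The Snd1_KI points lie above the WT points for Slc3a2, Slc7a5, Slc7a8, Slc38a3 and Slc38a5, and S6k2_RK replicate 2 stands apart for Slc7a5 at 2642.

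The shares of the main light chains overlapped between the 3 groups. Of the summed level per kb of the 6 light-chain genes measured, Slc7a5 made up 54.3% ± 5.06 in the WT animals, 57.0% ± 1.23 with the Snd1 allele and 54.5% ± 8.26 with the S6k2 allele (mean ± SD, n = 3), and Slc7a8 made up 37.5% ± 4.84, 37.9% ± 0.849 and 39.4% ± 7.18. The others were Slc7a6, Slc7a7, Slc7a10 and Slc7a11, of which Slc7a6 was the highest at 4.28% in WT, 3.06% in Snd1_KI and 3.65% in S6k2_RK. For each of these minor light chains, the Snd1_KI shares were all below those of WT. For Slc7a11 they were 0.576% to 0.639%, beside 0.645% to 0.892% in WT. In S6k2_RK only Slc7a10 was all below WT, at 0.0779% to 0.208% beside 0.751% to 1.33%. The ratio of Slc3a2 to the summed light chains, both per kb, was 0.624 ± 0.022, 0.654 ± 0.014 and 0.666 ± 0.071 in the same order, with overlap between the groups. These ratios within a library do not depend on how libraries are scaled. The ratio of Slc7a5 to Slc7a8 per kb was 1.45 to 1.56 in Snd1_KI, 1.14 to 1.77 in WT and 0.987 to 1.93 in S6k2_RK, and the 3 ranges overlapped. Slc7a10, which encodes the light chain Asc-1 for small neutral amino acids and is also known from white adipocytes, was under the mean of 10 needed for a test, and had 18.3, 10.8 and 20.7 normalized counts in WT, 9.52, 10.8 and 3.21 in Snd1_KI and 3.00, 4.03 and 1.24 in S6k2_RK.

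Slc7a11 encodes xCT, the light chain that takes up cystine in exchange for glutamate and so feeds glutathione synthesis. The gene is ENSMUSG00000027737 on chromosome 3, 49892526 to 50443614, minus strand. It had 76.8, 84.7 and 65.9 normalized counts in WT, 77.9, 72.8 and 90.9 in Snd1_KI and 63.0, 89.9 and 43.3 in S6k2_RK. The 3 groups overlapped, and the S6k2_RK animals held both ends: the second-highest and the lowest value of the 9. It was not called in Snd1_KI (0.088 ± 0.23, limma adjusted p = 0.876) or in S6k2_RK (-0.26 ± 0.23, limma adjusted p = 0.496). At equal totals the difference in S6k2_RK was -0.78 and was called (limma adjusted p = 0.0192).

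Slc43a1 encodes LAT3, which carries large neutral amino acids without a heavy chain. The gene is ENSMUSG00000027075 on chromosome 2, 84838850 to 84863594, plus strand. It was the lowest of the 10, with 13, 9 and 16 reads in WT, 22, 25 and 4 in Snd1_KI and 10, 5 and 1 in S6k2_RK. Its normalized counts were 11.3, 8.11 and 15.7 in WT, 19.0, 19.4 and 4.28 in Snd1_KI and 10, 6.71 and 1.24 in S6k2_RK, and the groups overlapped. The intervals were wide at this depth, -1.31 to 1.44 in Snd1_KI and -2.48 to 0.27 in S6k2_RK, with limma adjusted p of 0.973 and 0.292.

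The transporters for the cationic amino acids arginine, lysine and ornithine, Slc7a1 (CAT1) and Slc7a2 (CAT2), need no heavy chain. Slc7a1 is ENSMUSG00000041313 on chromosome 5, 148327410 to 148399904, minus strand, and Slc7a2 is ENSMUSG00000031596 on chromosome 8, 40862396 to 40922308, plus strand. Slc7a1 had 450.2, 418 and 565 normalized counts in WT, 668, 549.9 and 694 in Snd1_KI and 478, 817 and 587 in S6k2_RK. WT replicate 3 exceeded the lowest library of each mutant, so both mutants overlapped WT. The differences from WT were 0.42 ± 0.16 in Snd1_KI (limma adjusted p = 0.151) and 0.37 ± 0.16 in S6k2_RK (0.154), the latter -0.15 at equal totals. Without S6k2_RK replicate 1, Slc7a1 was called higher in S6k2_RK (limma adjusted p = 0.0263).

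Slc7a2 had 194, 232 and 203 normalized counts in WT, 277, 204 and 263 in Snd1_KI and 215, 228 and 272 in S6k2_RK, with overlap of the 3 groups. It was not called in Snd1_KI (0.24 ± 0.15, limma adjusted p = 0.386, -0.047 at equal totals) or in S6k2_RK (0.18 ± 0.15, 0.449, -0.33 at equal totals). Of its exons, 635 bp overlap Gm26584 on the other strand, which had at most 1 read in a library.

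The largest rises among the 10 genes were those of Slc38a3 and Slc38a5. They encode SNAT3 and SNAT5, which carry glutamine, asparagine and histidine together with sodium in exchange for a proton. Slc38a3 is ENSMUSG00000010064 on chromosome 9, 107650634 to 107669530, minus strand. It had 943, 803 and 1008 normalized counts in WT, 1565, 1533 and 1477 in Snd1_KI and 1423, 1714 and 1575 in S6k2_RK. The 6 mutant libraries were above the 3 WT libraries, and the lowest mutant value, in S6k2_RK replicate 1, was well above the highest WT value. Slc38a3 rose by 0.74 ± 0.11 (95% interval 0.51 to 0.96), 1.67-fold, in Snd1_KI, with a limma adjusted p of 0.000716. In S6k2_RK it rose by 0.78 ± 0.11 (95% interval 0.55 to 1.00), 1.71-fold, with an adjusted p of 0.000151. Both calls held without any 1 of the 9 libraries (adjusted p up to 0.00857 and 0.00178). At equal totals the differences were 0.45 (limma adjusted p = 0.0121) and 0.26 (0.0561), so there the S6k2_RK call was lost.

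Slc38a5 is ENSMUSG00000031170 on the X chromosome, 8271133 to 8280179, plus strand. Its normalized counts were 770.4, 718 and 1151 in WT, 1327, 1430.4 and 1459 in Snd1_KI and 1051, 1578 and 1544 in S6k2_RK. Snd1_KI did not overlap WT. S6k2_RK did, since WT replicate 3 was above S6k2_RK replicate 1. Slc38a5 rose by 0.71 ± 0.16 (95% interval 0.37 to 1.05), 1.63-fold, in Snd1_KI and by 0.67 ± 0.16 (0.33 to 1.01), 1.59-fold, in S6k2_RK, with limma adjusted p of 0.0152 and 0.0118. Calls were lost without WT replicate 1 or 2 in both mutants, without replicate 2 or 3 of the mutant itself (adjusted p up to 0.104 and 0.0666), and at equal totals, where the differences were 0.42 and 0.15 (limma adjusted p = 0.0608 and 0.381).

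Slc38a2 encodes SNAT2, a sodium-coupled carrier of alanine, serine and glutamine whose gene is known to be induced when cells lack amino acids. It is ENSMUSG00000022462 on chromosome 15, 96687392 to 96699730, minus strand. It had 1080.2, 1150.3 and 1026 normalized counts in WT, 1126, 1165 and 1187 in Snd1_KI and 864, 1289.7 and 961 in S6k2_RK. WT and Snd1_KI overlapped, and the S6k2_RK libraries spanned the range of both. The difference was 0.10 ± 0.12 in Snd1_KI (95% interval -0.16 to 0.36) and -0.084 ± 0.12 in S6k2_RK (-0.34 to 0.18), with limma adjusted p of 0.723 and 0.713. At equal totals it was -0.60 in S6k2_RK and was called (limma adjusted p = 0.00141), while in Snd1_KI it was -0.19.

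The mutants were also compared with each other. None of the 10 genes was called (limma adjusted p from 0.570 to 0.968), none had an unadjusted p below 0.05, and edgeR and DESeq2 called 0. Over all genes tested, 14 were called, 0.117%. For none of the 10 were the S6k2_RK libraries all above or all below those of Snd1_KI, beside 7.81% and 7.35% of all genes. At equal totals 4 of the 10 (Slc7a8, Slc38a2, Slc38a3 and Slc38a5) were all below and 0 all above, beside 23.8% and 1.07% of all genes. The interval of the difference, S6k2_RK less Snd1_KI, was -0.19 to 0.26 for Slc38a3, -0.38 to 0.30 for Slc38a5, -0.46 to 0.11 for Slc3a2 and -0.43 to 0.11 for Slc7a8, so these data neither show a difference nor bound it more closely. For Slc7a5 it was -0.65 to 0.11 (difference -0.27 ± 0.18). Without S6k2_RK replicate 2, Slc7a5 was called lower in S6k2_RK than in Snd1_KI, with a difference of -0.60 (limma adjusted p = 0.0189). Of the 10 differences, 9 were negative, with a median of -0.17 beside -0.0045 over all genes. Slc38a3 was the positive one, and at equal totals it was -0.20.

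S6k2_RK replicate 2 stood apart from the other animals of its group for several of the 10 genes. It was the highest of the 3 S6k2_RK libraries for 8 of the 10 genes, beside 20 of 33 amino-acid response genes, 16 of 33 other amino-acid transporters and 35.9% of all genes tested. At equal totals it was again the highest for 8 of 10, beside 30.2% of all genes. The lowest library depended on the scaling: S6k2_RK replicate 1 was the lowest for 7 of 10 (36.2% of all genes) and replicate 3 for 3 of 10, and at equal totals they were the lowest for 3 of 10 (13.9%) and 6 of 10 (55.8%). Its level divided by the mean of the other 2 animals was 1.98 for Slc7a5, 1.69 for Slc7a11, 1.53 for Slc7a1, 1.43 for Slc3a2 and 1.41 for Slc38a2. For Slc38a5, Slc7a8, Slc43a1 and Slc38a3 it was 1.14 to 1.22, and for Slc7a2 0.937. The median coefficient of variation of the 10 genes was 11.9%, 7.74% and 23.2% for WT, Snd1_KI and S6k2_RK, beside 14.5%, 12.5% and 16.0% over all genes tested.

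**Figure D4:**
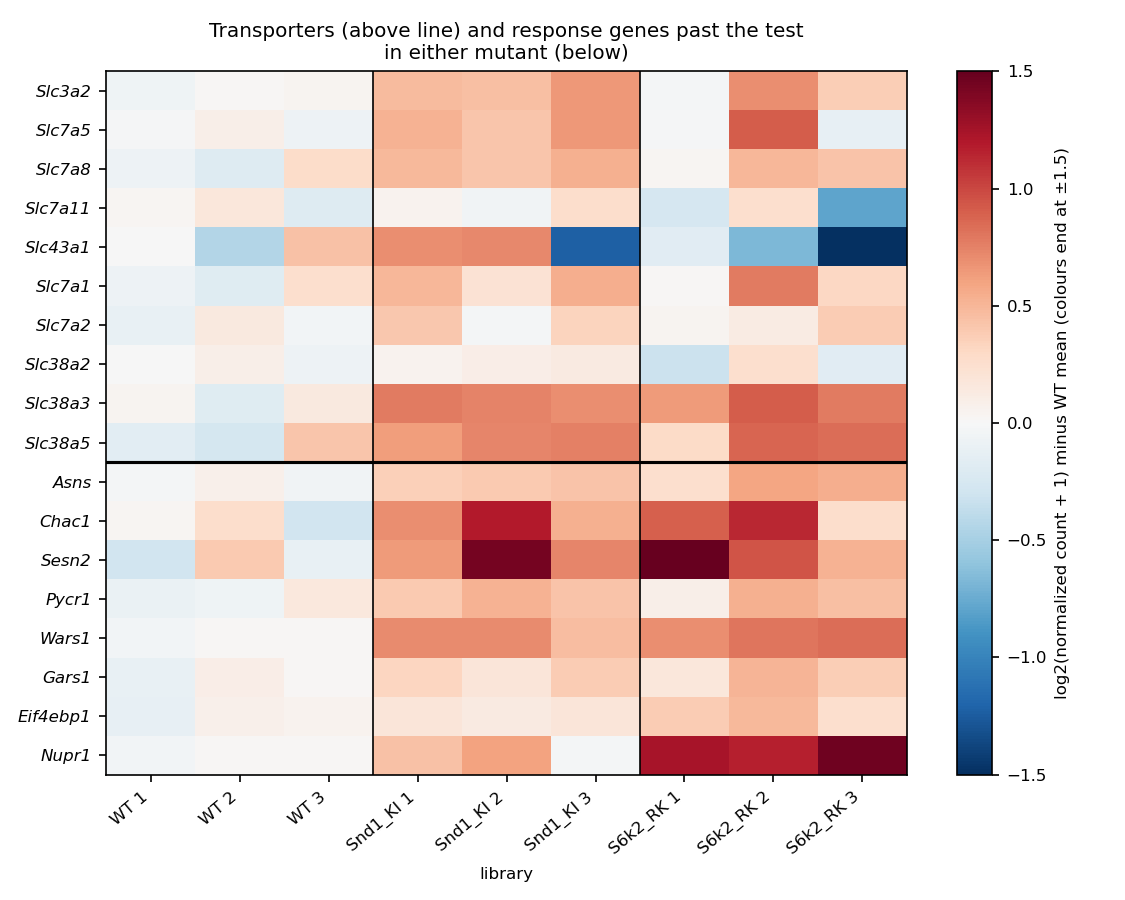
Log2 of the normalized count plus 1 less the WT mean, in the 9 libraries, for the 10 transporters and 8 amino-acid response genes called in a mutant, with colours that end at ±1.5. S6k2_RK replicate 2 is the highest of its group for 8 of the 10 transporters, and Slc38a3 is above the WT mean in the 6 mutant libraries.

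Profiles over the 9 libraries were compared after each was centred on its own mean, as the root mean square difference on the log2 scale. Among the 10, Slc7a1 and Slc7a8 were the closest pair (0.124), and Slc3a2 was nearest to Slc7a8 (0.132) and then Slc7a1 (0.133). Slc7a5 was nearest to Slc3a2 (0.183), Slc38a3 to Slc38a5 (0.170) and Slc7a11 to Slc38a2 (0.213). Slc38a5 itself was nearest to Slc7a8 (0.167), not to Slc38a3. Slc43a1 was far from the rest, at 0.879 or more. Of 7969 genes compared, those most like Slc3a2 were Slc39a9 (0.073), Tmem131l (0.082) and Tead1 (0.083).

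Of 48 other amino-acid transporter genes listed, 33 were tested: 2 rose and none fell in Snd1_KI, and 2 rose and 1 fell in S6k2_RK, with medians of -0.078 and 0.013. Over all genes 5.61% and 12.0% were called, so these counts are near or under the share that genes in general gave. At equal totals 5 and 13 were called lower and none higher. On that scale 13.2% and 49.8% of all genes were called lower, and 0.376% and 0.31% higher. Slc38a10, a member of the SLC38 family, had 1502, 1262 and 1743 normalized counts in WT, 2209, 2406 and 2233 in Snd1_KI and 2045, 2472 and 2275 in S6k2_RK. The 6 mutant libraries were above WT, and it rose by 0.61 ± 0.12 and 0.60 ± 0.12 (limma adjusted p = 0.00391 and 0.00235), calls that held without any 1 library but not at equal totals (0.33 and 0.080). Slc7a4, a relative of the cationic carriers, had 74.2, 64.9 and 77.7 normalized counts in WT, 105, 106 and 97.3 in Snd1_KI and 137, 132 and 119.9 in S6k2_RK, without overlap of the 3 groups, and rose by 0.83 ± 0.16 in S6k2_RK (limma adjusted p = 0.00211, 0.32 and not called at equal totals). Slc6a9, the glycine transporter GlyT1, rose by 0.47 ± 0.13 in Snd1_KI (limma adjusted p = 0.0380), a call lost without any 1 WT or Snd1_KI library (up to 0.181) and at equal totals (0.18). Slc6a6, the taurine transporter, fell in S6k2_RK, with a difference of -0.57 ± 0.14 (limma adjusted p = 0.0137), a call that needed WT replicate 1 and S6k2_RK replicate 2 (up to 0.0587 without them).

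Genes of the amino-acid response, which ATF4 is known to drive when amino acids or charged tRNA run short, were also listed. Of the 33 listed and tested, 5 rose in Snd1_KI and 7 in S6k2_RK, none fell, and the medians were 0.27 and 0.28. Over all genes tested, 2.4% were called higher and 3.2% lower in Snd1_KI, and 5.2% and 6.83% in S6k2_RK. At equal totals 1 was called higher in Snd1_KI and 2 higher and 10 lower in S6k2_RK, with medians of -0.019 and -0.23. There, 0.376% of all genes were called higher and 13.2% lower in Snd1_KI, and 0.31% and 49.8% in S6k2_RK. The median gene then lay at -0.28 and -0.51. Asns, asparagine synthetase, had 2557, 2739 and 2513 normalized counts in WT, 3342, 3420.1 and 3489 in Snd1_KI and 3099, 3928 and 3802 in S6k2_RK, without overlap of WT with either mutant. It rose by 0.39 ± 0.10 in Snd1_KI and 0.46 ± 0.10 in S6k2_RK (limma adjusted p = 0.0290 and 0.00623), though at equal totals the differences were 0.11 and -0.056, and the Snd1_KI call was lost without any 1 WT or Snd1_KI library (up to 0.118). Wars1, the tryptophanyl-tRNA synthetase, rose by 0.63 ± 0.10 and 0.78 ± 0.10 (limma adjusted p = 0.00120 and 8.29e-05) and was called at equal totals and without any 1 library in both. Chac1, which breaks down glutathione, rose by 0.81 ± 0.20 and 0.77 ± 0.20, and Sesn2, a leucine sensor of the mTORC1 pathway, by 0.94 ± 0.26 and 1.02 ± 0.26 (limma adjusted p from 0.0157 to 0.0400 for these 4). The calls for Chac1 were lost in Snd1_KI when WT replicate 1 or 3 or Snd1_KI replicate 2 was left out (up to 0.126) and in S6k2_RK when WT replicate 3 or S6k2_RK replicate 2 was (up to 0.0750). Those for Sesn2 were lost in Snd1_KI without either WT replicate 1 or 3 or Snd1_KI replicate 2 or 3 (up to 0.209), and in S6k2_RK without either WT or S6k2_RK replicate 1 (up to 0.0752). Pycr1, an enzyme of proline synthesis, rose in Snd1_KI by 0.45 ± 0.12 (limma adjusted p = 0.0356, lost when WT replicate 1, WT replicate 2 or any animal of Snd1_KI was left out, up to 0.139). In S6k2_RK Nupr1, a stress-induced chromatin protein, rose by 1.29 ± 0.14 and Eif4ebp1, a repressor of translation that mTORC1 phosphorylates, by 0.37 ± 0.10 (limma adjusted p = 2.87e-05 and 0.0243). The call for Nupr1 held without any 1 library and at equal totals, and that for Eif4ebp1 was lost when WT replicate 1 or S6k2_RK replicate 2 was left out (up to 0.121), while at equal totals its difference was -0.15. Atf4 itself was not called, at 0.039 ± 0.12 and 0.20 ± 0.12 (limma adjusted p = 0.894 and 0.289).

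**Figure D5:**
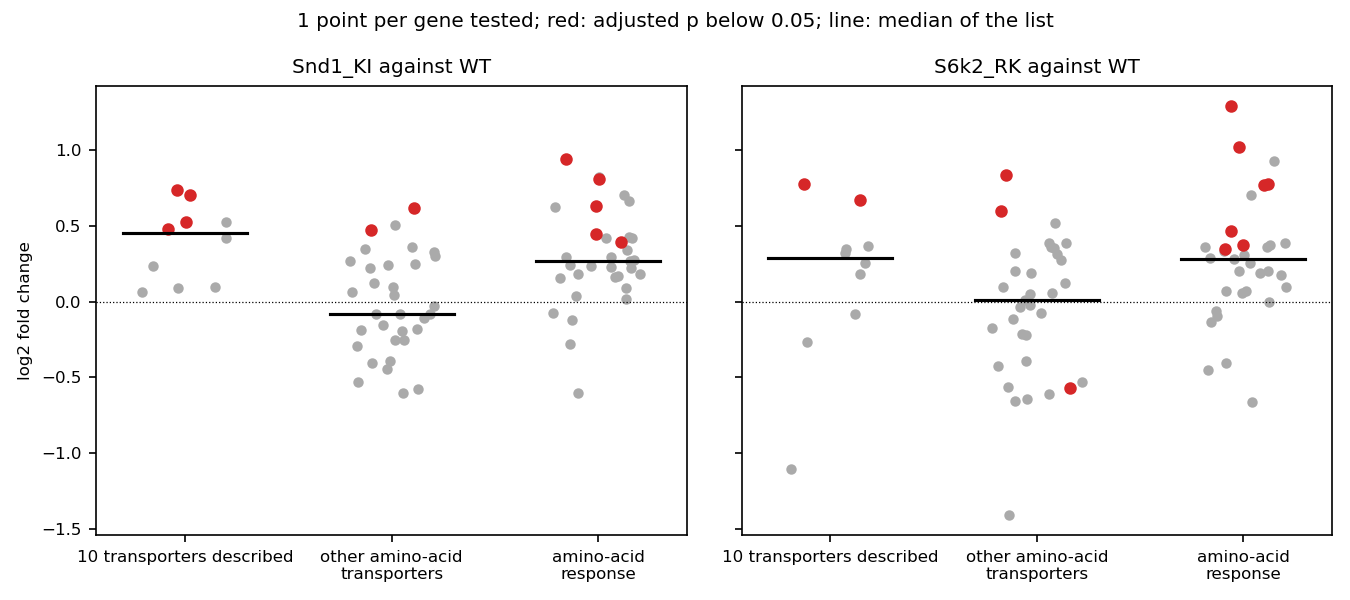
Log2 differences from WT for the 10 transporters, 33 other amino-acid transporters and 33 amino-acid response genes in each mutant, with red for genes called and a line at the median. Medians in Snd1_KI are 0.45, -0.078 and 0.27, and in S6k2_RK 0.29, 0.013 and 0.28.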

How the data were processed

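Per the labels' protocols, RNA was taken from ground frozen pancreas, and strand-specific polyA libraries (NEBNext Ultra II Directional) were sequenced as paired reads. DESeq2 and the builds GRCm38 and mm10 are named per the submitters' processing notes. The aligner, counter and annotation are not given in the sources used here. The authors deposited a signal per gene and library, the normalized count (gene counts divided by 1 size factor a library). Dividing each library by its smallest value gave whole reads for 100% of values, within 1e-06. In S6k2_RK replicate 1 the value of 1 read was 0.9996, close to 1, though its deposited values were not whole numbers. As an addition, edgeR was also run on the other 8 libraries.

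The main test was limma 3.58.1 (R 4.3.3) with a mean-variance trend on log2(normalized count + 1), for genes with a mean of at least 10 and all 9 libraries in 1 fit, two-sided, with Benjamini-Hochberg adjustment over 11953 genes. edgeR 4.0.16 and DESeq2 1.42.0 were run on recovered reads, where edgeR called 802 genes in Snd1_KI and 1380 in S6k2_RK. The fit was first tested on simulated data. It recovered 90 of 100 changes of 1 in Snd1_KI and 89 of 100 in S6k2_RK. Of 100 changes of 0.5 it recovered 14 and 21, so in that setting many differences of that size were not called. Changes were planted only in genes with a mean of at least 50, and in fewer genes than were called in the data. These recovery rates therefore need not carry over. Of 11753 unchanged genes it called 3 and 11. No library was a copy of another in its group (chi-square over degrees of freedom 8.16 to 22.2), and with 3 animals a group an exact permutation test cannot go below p = 0.1.

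The transporters, the gene lists and the markers were chosen with earlier results of these data known. Named genes were the 10 transporters, the targeted genes, up to 6 of each list per mutant with the smallest p among those called, and the 3 genes most like Slc3a2. Coordinates and merged exon lengths are those of GENCODE M21 (GRCm38), and promoters are RefSeq's. Alternatives were pseudocounts of 0.5 and 5, no filter, a mean of at least 50, equal totals, TMM, only the groups compared, a replicate block, the count tests, and leaving out each library.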

Additional observations from a re-analysis of the deposited data

How the results depend on the processing

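The 10 transporters had 597 values under alternatives: 531 kept direction and side of the threshold, 25 kept direction and lost the call, 12 gained it and 29 turned direction. The cause was not tested where none is named. For Snd1_KI against WT (670 genes, 4 transporters called), a mean of at least 50 gave 409 genes, equal totals 1626 genes and 1 transporter, and leaving out 1 library 222 to 824 genes and 1 to 5 transporters (Slc7a5 the fifth, without S6k2_RK replicate 2). For S6k2_RK against WT (1437 genes, 2 transporters), equal totals gave 5991 genes, and leaving out 1 library 748 to 1864 genes and 1 to 5 transporters. edgeR on 8 libraries, without S6k2_RK replicate 1 and chosen after seeing the data, called 5 transporters there. Between the mutants (14 genes, 0 transporters) equal totals gave 35 genes, DESeq2 55, edgeR on 8 libraries 70, and leaving out 1 library 4 to 85 genes and 0 to 1 transporters. Where the arm keeps 2 libraries, the fit assumes they vary like the other groups.

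At equal totals these differences turned: in Snd1_KI Slc7a2 -0.047, Slc7a11 -0.19, Slc38a2 -0.19, Slc43a1 -0.20 and Eif4ebp1 -0.12, in S6k2_RK Slc3a2 -0.17, Slc7a1 -0.15, Slc7a2 -0.33, Slc7a5 -0.26, Slc7a8 -0.20, Snd1 -0.039, Slc6a9 -0.13, Asns -0.056, Pycr1 -0.16 and Eif4ebp1 -0.15, and between the mutants Slc38a3 -0.20. Equal totals lower the median gene by construction where a few abundant genes take more reads. With edgeR on 8 libraries, Slc38a2 was 0.029 in S6k2_RK, and between the mutants Slc3a2 was 0.0067, Slc7a1 0.13, Slc7a2 0.0069 and Slc38a5 0.14. When 1 library was left out, the ranges that crossed 0 were -0.0078 to 0.17 for Slc7a11 and -0.26 to 0.71 for Slc43a1 in Snd1_KI, -0.071 to 0.45 for Slc7a5 and -0.25 to 0.038 for Slc38a2 in S6k2_RK, and between the mutants -0.35 to 0.0099 for Slc3a2, -0.26 to 0.13 for Slc7a1, -0.19 to 0.032 for Slc7a2, -0.026 to 0.11 for Slc38a3 and -0.14 to 0.15 for Slc38a5. Slc43a1 has no value at a mean of at least 50.

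Deviations of libraries with the same replicate number correlated by -0.0781 to 0.0454, which gave no sign that the numbers pair animals but cannot exclude it. With a replicate block, 589, 1304 and 11 genes and 4, 2 and 0 transporters were called in the 3 comparisons. Depth limits Slc43a1 most, with 1 to 25 reads a library, and with 3 animals a group a gene not called may still have changed within its interval.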

Other observations

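Genes that sense amino acids for mTORC1 (the Rag GTPases, the GATOR and Ragulator complexes and their sensors, without Sesn2) gave 0 and 3 calls. The sensor Sesn2 was counted with the response genes above. It was called higher in both mutants (0.94 and 1.02, limma adjusted p = 0.0400 and 0.0157), but not at equal totals (0.66 and 0.51). Of 28 listed, 25 were tested. In Snd1_KI limma called 0 of them, edgeR and DESeq2 called 0 as well, and 7 had an unadjusted p below 0.05, with a median difference of 0.082. In S6k2_RK limma called 3, chosen for naming after their values were seen, with a median of 0.053, beside 12.0% of all genes called. At equal totals 7 in Snd1_KI and 14 in S6k2_RK were called lower and 0 higher, beside 13.2% and 49.8% of all genes called lower. Sesn1, a relative of the leucine sensor Sesn2, fell: it had 530.5, 611 and 321 normalized counts in WT, 309, 274 and 349 in Snd1_KI and 177, 331 and 174 in S6k2_RK. S6k2_RK replicate 2 overlapped WT, and the difference in S6k2_RK was -1.11 ± 0.23 (SE), with a limma adjusted p of 0.00374 that stayed under the threshold without any 1 library (up to 0.0292). Rragd, a Rag GTPase, and Seh1l, a subunit of GATOR2, rose by 0.52 ± 0.15 and 0.46 ± 0.13 (limma adjusted p = 0.0284 and 0.0274). Both calls were lost in 4 of the fits without 1 library (without WT replicate 1 or 2 or S6k2_RK replicate 1 or 3 for Rragd, and without WT or S6k2_RK replicate 2 or 3 for Seh1l, with adjusted p up to 0.149 and 0.0914), and at equal totals the differences were -0.00016 and -0.054.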
